A study of Homo sapiens with 8 samples.

Results

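The 7SK RNA gene RN7SK and its copies made up 123 of the 2962 small RNA rows counted in HEK293, an established human line from embryonic kidney. They were chosen by name alone: the parent gene RN7SK, 121 copies named RN7SKP with a number, and the copy 7SK.7. Cells of 4 libraries had received a scrambled control mimic and cells of 4 libraries a mimic of a fragment (a tDR) from the 3′ end of tRNA-Asp-GTC, each at 50 nM by lipid transfection and collected at 48 h. All libraries came from the same unmodified line, from total RNA, and were made by OTTR-seq, where adapters are joined to the cDNA by template jumping of a reverse transcriptase. Whether replicates came from separate cultures is not stated in the labels, and p-values therefore reflect variation among these libraries, possibly technical. A bulk level cannot tell fewer cells of a type apart from less RNA per cell.

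7SK is a small nuclear RNA made by RNA polymerase III from a promoter that lies upstream of the gene. It holds the elongation factor P-TEFb, a kinase of CDK9 and a T-type cyclin, in an inactive complex together with a HEXIM protein, and releases it when transcription needs to be raised. LARP7 binds the 3′ end of the RNA and MePCE caps its 5′ end. The genome carries many copies of the gene, which arose by reverse transcription of the RNA and are annotated as pseudogenes.

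Library totals over the 2962 rows ran from 4016295 to 10246336 counts in the scramble libraries and from 6910186 to 8007025 in the tDR libraries. Scramble library 3 was the shallowest. The row scr2, whose meaning is not explained in the labels, held between 22444 and 58186 counts in the scramble libraries and between 59 and 240 in the tDR libraries. All 6 microRNAs listed as markers of a proliferating embryonic kidney line were counted, at 64 counts or more in every library, with a summed level of 958 to 1687 CPM (counts scaled to a common library total) in the scramble libraries and 518 to 1103 CPM in the tDR libraries. Of 8 markers of liver, nerve, blood, endothelium and muscle, 4 were examined here, and their summed level stayed between 3.76 and 13.3 CPM in all libraries.

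RN7SK lies on chromosome 6 at 52995621 to 52995948, plus strand (GRCh38, GENCODE release 29), outside protein-coding genes, and is 328 bases long. Its 5′ hairpin carries GATC sites (GAUC in the RNA), the sequence known for HEXIM binding. The first 100 bases, chr6:52995621-52995720, are shown with these sites in capitals, since the copies differ in how many they kept.
RN7SK: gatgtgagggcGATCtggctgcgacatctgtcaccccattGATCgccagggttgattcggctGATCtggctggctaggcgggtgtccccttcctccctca
The 3 sites begin at bases 12, 41 and 63 of RN7SK. Sequences of 121 of the 122 copies were taken from GENCODE release 29, all but 7SK.7, and each was aligned to RN7SK. The site at base 12 was kept in 77 copies, that at base 41 in 67 and that at base 63 in 100, and 34 copies kept all 3. GATC reads the same on both strands. At least 3 GATC sites were found anywhere in 38.0% of the copies and in 2.25% of 35116 promoter windows of 300 bases from RefSeq (GRCh38.p14). The copies derive from RN7SK with its 3 sites and differ in length, so these shares are not a test of enrichment. A match is a description of the letters and not of binding.

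Most copies resembled only the front part of the gene. Of the 121 copies, 110 aligned from base 1 to 3 of RN7SK. For 102 copies the alignment ended within 10 bases of base 239, the median end, and for 14 it ran to base 300 or beyond. These 14 are called copies reaching the 3′ end here, and the others copies stopping before it. Identity over the aligned part ranged from 73.0% to 98.3% with a median of 89.5%. The longest stretch that matched RN7SK without a difference was 34 bases at the median, 21 at the least and 145 at the most, and was 50 bases or more in 10 copies. Over all copies there were 2843 substitutions, of which 66.7% were C-to-T or G-to-A. Bases of RN7SK that belong to a CpG were substituted in 35.7% of the aligned positions, and other bases in 5.3%. Of the copies, 44 lay in introns of protein-coding genes, 6 overlapped an exon of one and 71 lay outside such genes.

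**Figure D1:**
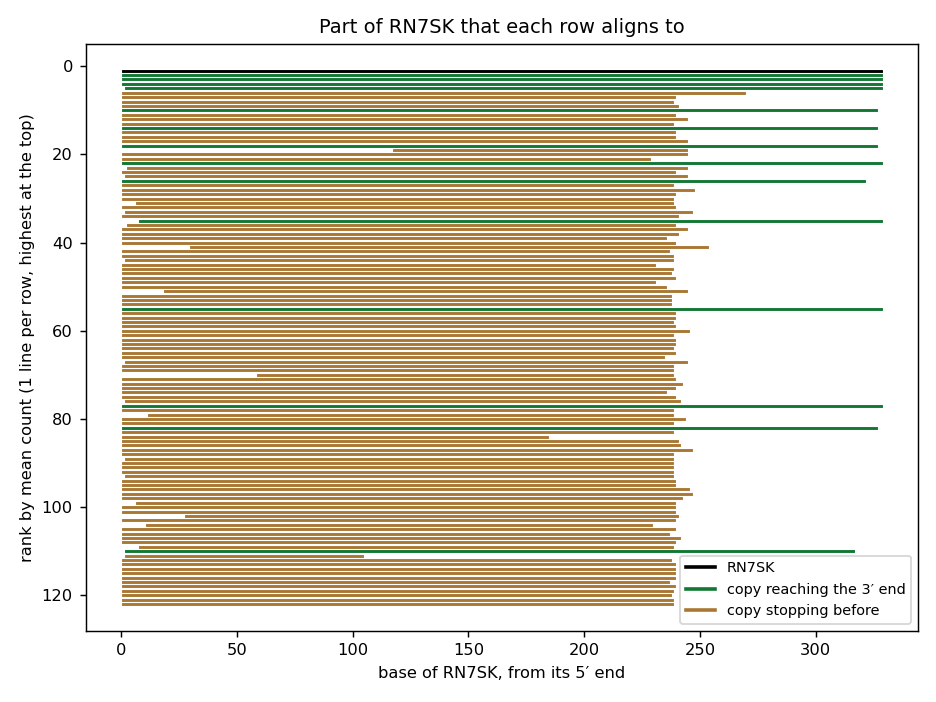
Part of RN7SK to which each of 122 rows with a sequence aligned. The horizontal axis is the base of RN7SK counted from its 5′ end, and each line is a row, ordered by mean count over the 8 libraries with the highest at the top. The 4 rows just below RN7SK all reach its 3′ end, while 102 of the 121 copies end within 10 bases of base 239.

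The family differed widely in level. RN7SK had a mean count of 2529 over the libraries, from 1403 to 3300. With the 2 pairs of rows of equal counts taken once (RN7SKP63 with RN7SKP131, RN7SKP169 with RN7SKP278), 11 copies had a mean count of 100 or more, 29 of 20 to 100, and 80 of less than 20. Per length, RN7SK stood at 980.5 ± 116 CPM per kilobase in the scramble libraries (SD, n = 4, scaled by TMM, a library factor that centres most rows on each other). RN7SKP160 followed at 347 ± 16.0, RN7SKP292 at 255 ± 9.75, RN7SKP175 at 168 ± 9.36 and RN7SKP187 at 94.5 ± 7.86 CPM per kilobase. The ranges of 1 SD around these 5 levels did not overlap, and the 4 copies carried 41.6% of all counts at copies. RN7SKP80 came next at 73.8 ± 24.1 CPM per kilobase, then RN7SKP255 at 53.3 ± 7.27, RN7SKP71 at 52.7 ± 17.9, RN7SKP203 at 41.9 ± 0.718, RN7SKP176 at 41.8 ± 16.8 and RN7SKP48 at 39.7 ± 4.84. RN7SKP80 had a wide spread that took in the level of RN7SKP187, and neither the pair RN7SKP255 and RN7SKP71 nor the trio RN7SKP203, RN7SKP176 and RN7SKP48 could be ordered beyond their spread.

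The 4 most abundant copies all reach the 3′ end of RN7SK. The last part of the gene, bases 270 to 328, is shown for RN7SK and 5 of the copies that cover it (RN7SKP175 is not shown), with bases that differ from RN7SK in capitals. They lie at chr6:52995890-52995948 (plus) in RN7SK, chr1:173791827-173791885 (plus) in RN7SKP160, chr4:6997268-6997326 (plus) in RN7SKP292, chr7:112288892-112288950 (plus) in RN7SKP187, chr4:85100765-85100821 (plus) in RN7SKP48 and chr16:67321662-67321718 (minus) in RN7SKP118.
RN7SK: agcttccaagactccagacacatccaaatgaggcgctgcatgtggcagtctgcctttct
RN7SKP160: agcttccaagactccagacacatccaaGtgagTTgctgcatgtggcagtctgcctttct
RN7SKP292: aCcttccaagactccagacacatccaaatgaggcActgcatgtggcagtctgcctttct
RN7SKP187: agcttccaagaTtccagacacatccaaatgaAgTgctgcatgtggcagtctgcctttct
RN7SKP48: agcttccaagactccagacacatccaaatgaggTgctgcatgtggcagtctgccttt
RN7SKP118: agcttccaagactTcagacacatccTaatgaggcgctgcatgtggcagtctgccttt
Over the 14 copies reaching the 3′ end the median was 160 counts per kilobase, and over 105 sets of equal counts that stop before it the median was 31.7 counts per kilobase. The spread was wide, since the mean count of the 14 went down to 2.88. Across 119 copies with a sequence the rank correlation between the longest exact match to RN7SK and the mean count was 0.65 (Spearman). Copies that share sequence can share reads, so the copies are not independent points.

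RN7SK itself did not pass the test. Its level was 376, 308, 315 and 287 CPM in scramble libraries 1 to 4 and 330, 323, 362 and 311 CPM in tDR libraries 1 to 4. The groups overlapped, and scramble library 1 was the highest of all 8. The means were 322 ± 38.2 and 331 ± 21.5 CPM (SD, n = 4 each). The log2 fold change of tDR against scramble (log2FC) was 0.044 with an SE of 0.15, and the quasi-likelihood test of edgeR, adjusted by Benjamini-Hochberg over all 1761 rows tested, gave an adjusted p of 0.908. The direction of RN7SK turned under total-count scaling (-0.096), when rows with mean counts under 50 were dropped (-0.00029) and without scramble library 4 (-0.023), and over the alternatives run its adjusted p lay between 0.398 and 0.999.

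The most abundant copies, which reach the 3′ end, did not pass either. The files do not say how reads that match several copies, or reads of a host transcript on the same strand, were counted, so values of similar copies are uncertain. RN7SKP160 (chromosome 1, 173791548 to 173791887, outside protein-coding genes) gave 112, 117, 125 and 118 CPM in scramble libraries 1 to 4 and 103, 106, 95.5 and 115 CPM in tDR libraries 1 to 4. Apart from tDR library 4, the tDR values lay below the scramble values, and the log2FC of -0.17 (SE 0.14) did not pass (adjusted p = 0.522). RN7SKP292 (chromosome 4, 6997012 to 6997328, in an intron of TBC1D14 on the same strand) gave 85.3, 79.0, 79.3 and 79.3 CPM with scramble and 73.5, 69.2, 80.3 and 69.1 CPM with the tDR mimic. These overlapped through tDR library 3, and the log2FC was -0.14 (SE 0.13, adjusted p = 0.593). RN7SKP175 had a log2FC of 0.038 (SE 0.14, adjusted p = 0.923). RN7SKP187, which overlaps an annotated exon of ZNF277 on the same strand, had -0.20 (SE 0.15, adjusted p = 0.497). RN7SKP118, which overlaps an exon of KCTD19 on the same strand, had -0.22 (SE 0.21, adjusted p = 0.588). RN7SKP55 stood at -0.011 (SE 0.26, adjusted p = 0.988). RN7SKP48, in the same class, gave 13.7, 12.9, 14.6 and 10.9 CPM in the scramble libraries and 17.7, 19.8, 18.1 and 24.2 CPM in the tDR libraries. Its groups did not overlap, and its log2FC of 0.62 (SE 0.19) came close to the threshold without passing it (adjusted p = 0.0513).

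In all, 7 copies rose with the tDR mimic and 0 tested rows of the family were called lower. Of 123 members, 64 passed the filter on low counts, namely RN7SK and 63 copies (62 with equal rows once), and all 7 calls were copies. The 7 of 64 (edgeR, adjusted p below 0.05) stand beside 5.34% called higher over all rows tested. For lower calls the share over all rows was 1.36%. The 59 members not tested had mean counts of 0.75 to 10.8, and 23 of them had a count of 0 in some library, where up to 3 counts remain possible. Fitted with no filter, 5 of these 59 were lower and 2 higher at an unadjusted edgeR p below 0.05. The share over all rows in that fit was not taken, so these counts have no background here. None of the 59 passed after adjustment. The lowest p among them was that of RN7SKP222, chosen after its values were seen, with counts of 9, 8, 2 and 14 in the scramble libraries and 2, 1, 2 and 2 in the tDR libraries (edgeR adjusted p = 0.125 with no filter). At an unadjusted p below 0.05 edgeR found 24 of the 64 family rows higher and 0 lower. Over all rows these shares were 12.8% and 8.69%. At an adjusted p below 0.05 DESeq2 and limma-voom called 0 family rows lower. The median log2FC over the copies tested was 0.34, and over all rows 0.02. Of those copies, 20 had every tDR library above every scramble library, against 7.78% of all rows. Every tDR library lay below in 0 of them, against 5.51%. A scarce copy can pass the filter through its tDR libraries alone, so the filter can shape such counts. RN7SKP137, with counts of 5, 9, 7 and 11 in scramble and 17, 20, 15 and 12 in tDR libraries, was tested. RN7SKP165, at 19, 17, 3 and 18 and then 6, 7, 10 and 6, was not. Both were chosen after their values were seen, and the size of this effect was not tested. A further 15 copies had an adjusted p between 0.05 and 0.1, all 15 with a log2FC above 0. Over all rows 2.61% lay in that range with a log2FC above 0 and 1.59% below 0. The copies in all these counts include some with similar values that may share reads, so they were not taken as independent. The count of 7 was not stable: it became 0 without scramble library 2, 4 without scramble library 3, 2 without tDR library 2 and 1 under total-count scaling. Higher calls over all rows, 94 in the main fit, were 52, 59, 59 and 54 in these same settings. The family count became 17 with DESeq2, 18 with the authors' factors, 19 with limma on the deposited signal and 21 under scaling on microRNAs alone. Higher calls over all rows were then 133, 125, 116 and 157.

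**Figure D2:**
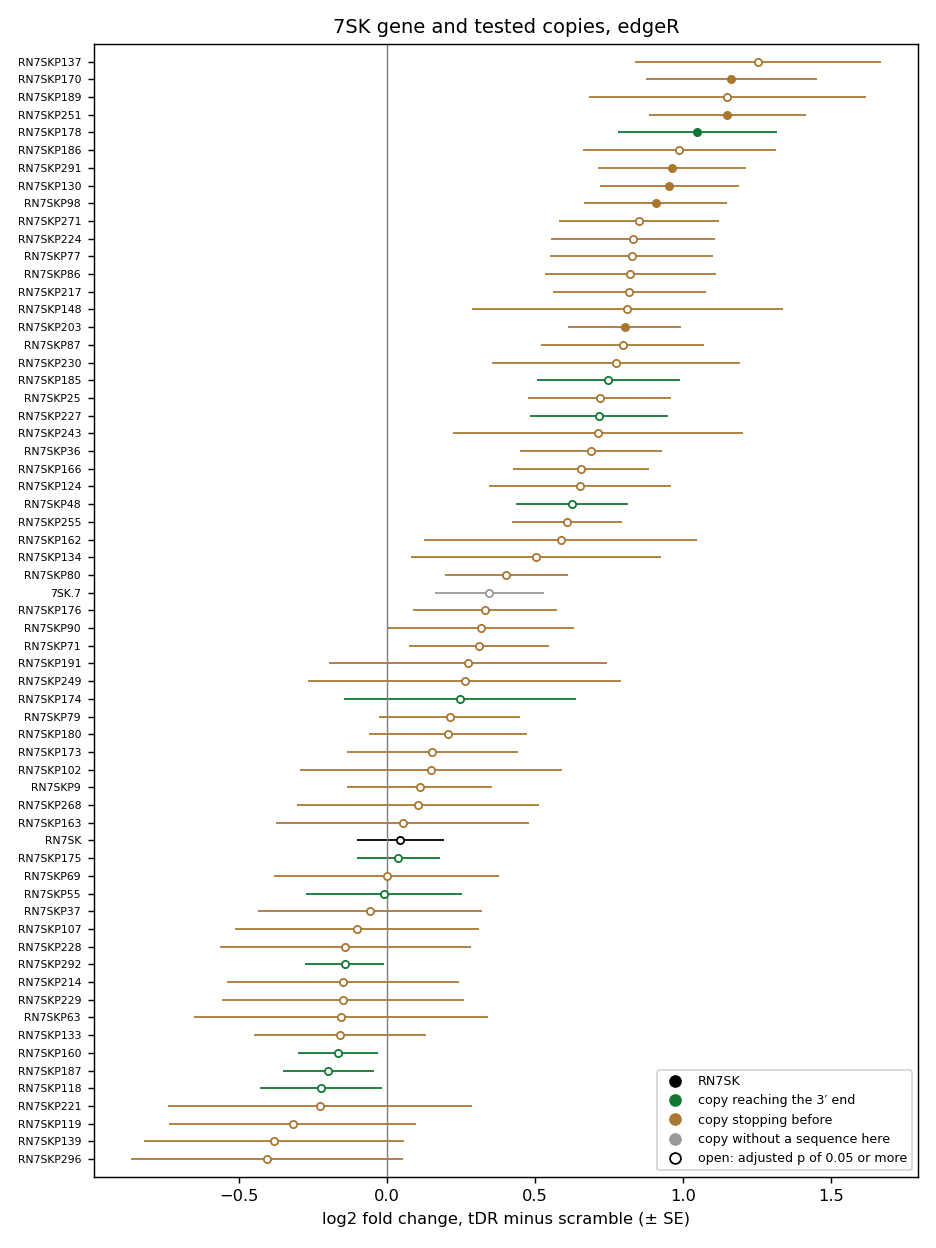
Log2 fold change (log2FC) of tDR against scramble with its SE for RN7SK and 62 tested copies (equal rows once), from edgeR. Filled points passed an adjusted p of 0.05. Colours mark RN7SK, copies that reach its 3′ end, copies that stop before it and 7SK.7, and the 7 filled points lie between 0.80 and 1.16, while RN7SK lies at 0.044.

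The most abundant of the 7 was RN7SKP203 (chromosome 2, 76445079 to 76445410, minus strand, outside protein-coding genes). It stops at base 240 of RN7SK and matches it at 98.3% of the aligned bases, with an exact stretch of 143 bases. It gave 14.1, 13.6, 13.9 and 14.0 CPM in scramble libraries 1 to 4 and 19.9, 32.6, 20.6 and 24.0 CPM in tDR libraries 1 to 4. The scramble values were nearly equal, all tDR values lay above them, and tDR library 2 was the highest. The log2FC was 0.80 (SE 0.19, adjusted p = 0.0142). The call was lost without scramble library 2 (adjusted p = 0.0528) or tDR library 2 (0.0504) and under total counts (0.0678).

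The other 6 copies were scarcer, at 3.12 to 4.74 CPM in the scramble libraries. RN7SKP251 (chromosome 5, 68970439 to 68970752, minus strand) gave 2.67, 2.84, 2.92 and 4.96 CPM in scramble libraries 1 to 4 and 8.04, 8.57, 7.65 and 6.14 CPM in tDR libraries 1 to 4, a log2FC of 1.15 (SE 0.27, adjusted p = 0.0116). RN7SKP178 (chromosome 2, 205900630 to 205900958, plus strand) gave 2.92, 2.94, 2.92 and 5.05 CPM and 8.18, 8.57, 6.96 and 5.59 CPM, a log2FC of 1.05 (SE 0.27, adjusted p = 0.0229). In both, scramble library 4 was the highest of its group and tDR library 4 the lowest of its group, and the groups did not overlap. RN7SKP170 (chromosome 4, 15093767 to 15094094, minus strand) gave 2.79, 1.99, 3.14 and 4.53 CPM and 7.63, 8.42, 7.24 and 4.89 CPM, with the same 2 libraries nearest to each other. It rose by a log2FC of 1.16 (SE 0.29, adjusted p = 0.0184). These 3 copies lie outside protein-coding genes.

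RN7SKP130 gave 4.06, 4.27, 5.61 and 4.88 CPM in scramble libraries 1 to 4 and 8.59, 11.4, 7.38 and 8.80 CPM in tDR libraries 1 to 4. RN7SKP291 (chromosome 1, 55376526 to 55376852, minus strand, outside protein-coding genes) gave 3.30, 4.36, 6.51 and 4.79 CPM and 8.72, 11.5, 7.38 and 8.66 CPM. In both the tDR libraries had the same order, with library 2 the highest and library 3 the lowest, and the groups did not overlap. Their counts were close, at 32, 45, 25 and 56 for RN7SKP130 and 26, 46, 29 and 55 for RN7SKP291 in the scramble libraries, and at 63, 73, 53 and 63 and 64, 74, 53 and 62 in the tDR libraries. Whether these copies share reads was not tested, and their calls were not taken as independent. Their log2FCs were 0.95 (SE 0.23, adjusted p = 0.0175) and 0.96 (SE 0.25, adjusted p = 0.0240). RN7SKP98 (chromosome 1, 212099521 to 212099676, minus strand, in an intron of DTL on the opposite strand) is the shortest copy at 156 bases and begins at base 118 of RN7SK, so it lacks the 5′ hairpin and has 0 GATC sites. It gave 5.08, 3.79, 3.37 and 6.27 CPM and 8.995, 9.35, 9.46 and 7.68 CPM. All 4 tDR values were above the scramble values, and the log2FC was 0.91 (SE 0.24, adjusted p = 0.0268). Without scramble library 2 the adjusted p of these 6 copies lay between 0.0584 and 0.102, so none of them was called. Without tDR library 2 the calls of RN7SKP130, RN7SKP178, RN7SKP291 and RN7SKP98 were lost, without scramble library 3 those of RN7SKP170, RN7SKP178 and RN7SKP98, without scramble library 1 or 4 that of RN7SKP291, and without tDR library 3 that of RN7SKP98.

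**Figure D3:**
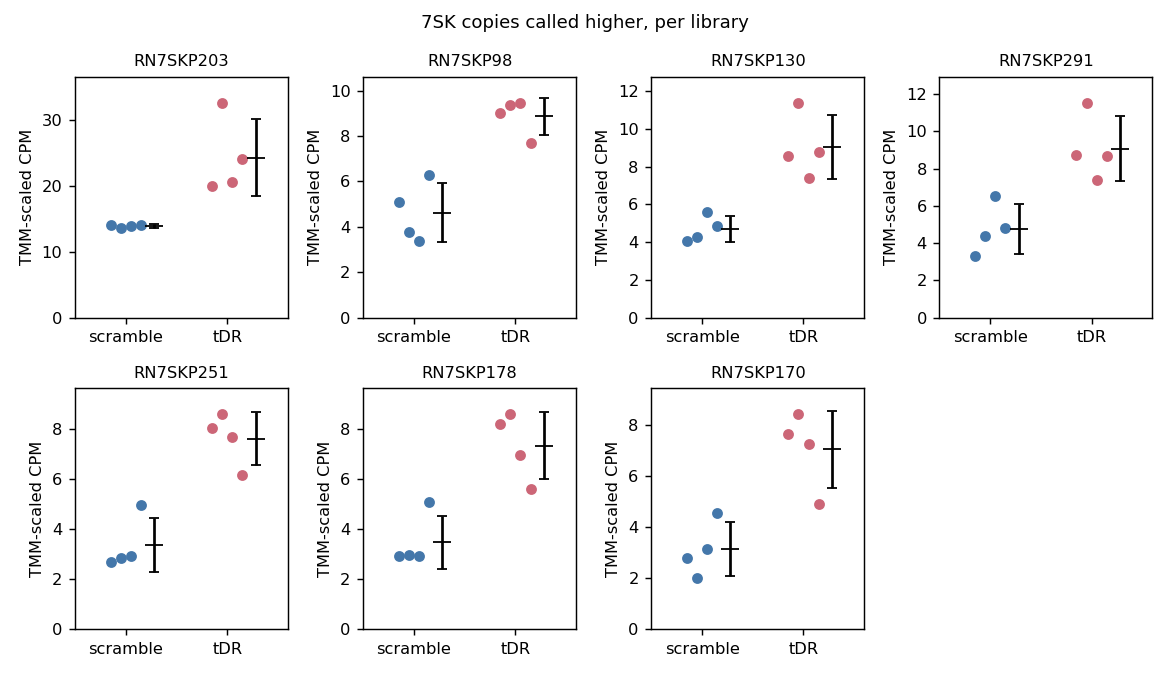
Level in TMM-scaled CPM of the 7 copies called higher, 1 panel a copy. Points are libraries 1 to 4 of each group from left to right, and bars are the mean and SD (n = 4). In every panel all 4 tDR points lie above all 4 scramble points, by the smallest margin in RN7SKP170.

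To show how alike these copies are, the part of 6 of them that matches bases 200 to 240 of RN7SK is given, with bases that differ from RN7SK in capitals. It lies at chr6:52995820-52995860 (plus) in RN7SK, chr2:76445170-76445210 (minus) in RN7SKP203, chr5:68970512-68970552 (minus) in RN7SKP251, chr2:205900828-205900868 (plus) in RN7SKP178, chr4:15093854-15093893 (minus) in RN7SKP170, chr1:55376622-55376650 (minus) in RN7SKP291 and chr1:212099552-212099592 (minus) in RN7SKP98.
RN7SK: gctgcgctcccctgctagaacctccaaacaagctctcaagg
RN7SKP203: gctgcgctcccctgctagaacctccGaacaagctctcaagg
RN7SKP251: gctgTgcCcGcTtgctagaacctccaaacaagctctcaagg
RN7SKP178: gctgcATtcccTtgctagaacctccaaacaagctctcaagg
RN7SKP170: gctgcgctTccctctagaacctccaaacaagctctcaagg
RN7SKP291: gctgcActcccctgctagaaTctccaaac
RN7SKP98: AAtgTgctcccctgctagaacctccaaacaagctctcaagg
The stretch of RN7SKP291 ends where its alignment ends, at base 228 of RN7SK. That of RN7SKP170 lacks a base of RN7SK, a difference that the capitals do not show. RN7SKP251 and RN7SKP178 share the substitution C211T (RN7SK base, position from its 5′ end, copy base), which 7 of 118 copies aligned there carry. The counts of these 2 copies were near equal, with differences of at most 3 counts or 10% in every library, and the copies have in common an uninterrupted stretch of 35 bases that holds this substitution.
RN7SKP251 and RN7SKP178: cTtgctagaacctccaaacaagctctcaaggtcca
It lies at chr5:68970508-68970542 (minus) and chr2:205900838-205900872 (plus), and 0 of the other 7SK genes of GENCODE hold it. These 2 calls may rest on shared reads and were not taken as independent of each other. RN7SKP170 and RN7SKP98 also match RN7SK over the last part of the window printed above. Counts of RN7SKP170 were 22, 21, 14 and 52 in scramble and 56, 54, 52 and 35 in tDR libraries. Those of RN7SKP251 were 21, 30, 13 and 57, and 59, 55, 55 and 44. Sharing of reads among them was not tested, and their calls were not taken as independent either.

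There were 3 other sets with near-equal counts among copies of mean count 10 or more. RN7SKP165, RN7SKP139, RN7SKP296 and RN7SKP228, at mean counts of 10.8 to 13.8, share 36 bases that begin with the substitution C204T, which 42 of 117 copies aligned there carry.
RN7SKP165, RN7SKP139, RN7SKP296 and RN7SKP228: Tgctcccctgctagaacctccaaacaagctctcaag
The stretch lies at chr1:226446136-226446171, chr15:47272794-47272829, chr3:190642367-190642402 and chr7:12876847-12876882, each on the plus strand, and occurs in 2 further members, RN7SKP98 and RN7SKP119. RN7SKP107, RN7SKP69, RN7SKP63, RN7SKP131 and RN7SKP221 share 30 bases with each other and with RN7SK, as do RN7SKP224, RN7SKP77 and RN7SKP87. These last 3 copies had log2FCs of 0.83, 0.82 and 0.80 (SE 0.28, 0.28 and 0.28), none of which passed edgeR (adjusted p from 0.0804 to 0.0955), and their groups did not overlap.

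The parent and the copies were then set against each other within a library, which needs no scaling between libraries. Counts of all copies summed, with equal rows once, were 1.84, 1.79, 1.77 and 2.08 times those of RN7SK in scramble libraries 1 to 4 and 2.02, 2.44, 1.82 and 2.17 times in tDR libraries 1 to 4. The groups overlapped, with means of 1.87 ± 0.141 and 2.11 ± 0.261 (SD, n = 4 each). For copies that reach the 3′ end the ratio was 0.869, 1.02, 1.05 and 1.11 in scramble and 0.986, 0.993, 0.852 and 1.01 in tDR libraries. For copies that stop before it the ratio was 0.927, 0.736, 0.682 and 0.918 in scramble and 0.983, 1.39, 0.925 and 1.11 in tDR libraries. In this class 1 pair of values crossed, scramble library 1 over tDR library 3, and tDR library 2 was the highest.

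In CPM the sums of each class were taken as well, and the most abundant copies weigh most in a sum. Copies reaching the 3′ end summed to 327, 314, 331 and 320 CPM in scramble and 325, 321, 308 and 313 CPM in tDR libraries, means of 323 ± 7.41 and 317 ± 7.81. Copies stopping before it summed to 349, 226, 215 and 264 CPM in scramble and 324, 450, 334 and 346 CPM in tDR libraries, means of 264 ± 60.6 and 364 ± 58.2 (SD, n = 4 each). In the second class scramble library 1 was above 3 of the 4 tDR libraries, so the groups overlapped. Among tested copies the median log2FC was 0.038 for the 11 that reach the 3′ end and 0.45 for the 50 that stop before it. Of these, 1 and 6 were called higher (RN7SKP178 being the one that reaches it), beside 5.34% of all rows. Every tDR library lay above every scramble library in 4 of the 11 and 15 of the 50, beside 7.78% of all rows. An unadjusted edgeR p below 0.05 was found in 4 of the 11 and 20 of the 50, beside 21.5% of all rows. By these counts the classes did not separate as the sums did. By total counts the median of the first class was -0.10 and that of the second 0.32. Under scaling on microRNAs alone they were 0.36 and 0.71. The difference between the classes was not tested, and copies within a class may share reads.

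**Figure D4:**
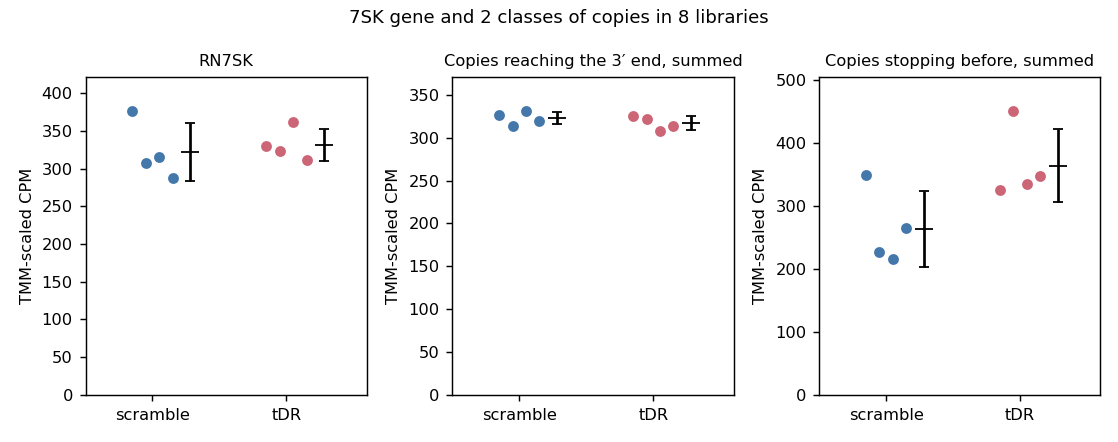
TMM-scaled CPM of RN7SK (left), of the summed copies reaching its 3′ end (middle) and of the summed copies stopping before it (right), with equal rows once. Points are libraries 1 to 4 of each group from left to right, and bars are the mean and SD (n = 4). The means are 322 and 331 CPM on the left and 323 and 317 CPM in the middle, while on the right they are 264 and 364 CPM and scramble library 1 lies among the tDR libraries.

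Set against RN7SK 1 copy at a time, 13 of 62 tested copies had a higher share of the RN7SK count in every tDR library than in any scramble library, against 5.97% of all rows treated the same way. Of the called copies, RN7SKP170 and RN7SKP291 overlapped in this share. RN7SKP170 stood at 1.58% in scramble library 4 and 1.57% in tDR library 4, and RN7SKP291 at 2.07% in scramble library 3 and 2.04% in tDR library 3. RN7SKP203 stood at 3.75%, 4.41%, 4.42% and 4.88% of RN7SK in the scramble libraries and 6.03%, 10.1%, 5.70% and 7.72% in the tDR libraries. RN7SKP255, an abundant copy with 98.3% identity over its aligned part, stood at 5.24%, 4.68%, 5.42% and 5.42% and then at 6.98%, 10.2%, 6.39% and 7.22%. Neither overlapped, although RN7SKP255 itself did not pass edgeR (log2FC 0.61, SE 0.19, adjusted p = 0.0548). RN7SKP292 was the only tested copy below in every tDR library, at 25.3 ± 2.01% and 22.0 ± 0.417% (SD, n = 4 each), against 4.89% of all rows. A test of the difference between RN7SK and a copy was not run. The limits given above for the filter and for shared reads hold for these counts too.

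The copies were then split by their likeness to RN7SK. Of the copies that stop early and have an exact stretch of 50 bases or more, 1 of 7 was called, and their median log2FC was 0.40. Of those with a shorter stretch 5 of 43 were called, with a median of 0.50. RN7SKP80 (chromosome 22, in an intron of SERHL2 on the opposite strand), 96.3% identical over its aligned part, had a log2FC of 0.40 (SE 0.21, adjusted p = 0.262). RN7SKP71, with the longest exact stretch of 145 bases, had 0.31 (SE 0.24, adjusted p = 0.494), and RN7SKP176 had 0.33 (SE 0.24, adjusted p = 0.471). In these 3 scramble library 1 was above the other scramble libraries, for RN7SKP176 at 21.2 CPM beside 9.67, 11.7 and 10.6 CPM. Across 61 tested copies the rank correlation of the log2FC with the longest exact stretch was 0.065 and with identity -0.016 (Spearman). By level, 1 of 11 copies with a mean count of 100 or more was called. Of those with 20 to 100, 6 of 29 were called, and of those with less than 20, 0 of 22. The medians were 0.33, 0.75 and 0.078, and at mean counts under 20 the depth limits what can be called. In introns of protein-coding genes 2 of 28 tested copies were called, and outside such genes 5 of 28. Beside all these counts, 5.34% of all rows were called higher.

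No tested member was called lower. Beside RN7SKP118, RN7SKP187 and RN7SKP160, the lowest log2FCs among copies with a mean count of at least 20 were -0.16 (SE 0.29) for RN7SKP133 and -0.15 (SE 0.39) for RN7SKP214, with adjusted p of 0.83 and 0.88. RN7SKP186, with 1 of the 5 largest log2FC values among copies of mean count 20 or more, gave 1.78, 1.71, 3.14 and 4.44 CPM in the scramble libraries and 4.91, 7.33, 5.57 and 4.33 CPM in the tDR libraries. Its groups overlapped through scramble library 4 and tDR library 4, and its log2FC of 0.99 (SE 0.33) did not pass (adjusted p = 0.0784).

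Other RNA polymerase III genes were examined from 2 lists. Of 12 genes with an upstream promoter like that of RN7SK, 2 rose and 0 fell, with a median log2FC of -0.032. Over all rows 5.34% were called higher and 1.36% lower. RNY4, the Y4 RNA bound by Ro60, and RMRP, the RNA of ribonuclease MRP, were the 2 that rose, by log2FCs of 0.76 (SE 0.15, adjusted p = 0.0028) and 0.62 (SE 0.14, adjusted p = 0.0119). The RMRP call was lost by total counts (adjusted p = 0.0737) and with the replicate number as a block (0.0812). The U6 genes RNU6-1, RNU6-2, RNU6-7, RNU6-8 and RNU6-9, which serve the spliceosome, lay between -0.15 and -0.080, and RNU6-2, RNU6-7 and RNU6-8 had similar levels, so that their reads may be shared. RPPH1, the RNA of ribonuclease P, stood at 0.11 (SE 0.14), RNY1 at 0.33 (SE 0.15), RNY3 at 0.016 (SE 0.15) and RNY5 at 0.23 (SE 0.15). RNU6ATAC of the minor spliceosome stood at -0.48 (SE 0.15, adjusted p = 0.0662). Its tDR libraries all lay below its scramble libraries, as in 5.51% of all rows. Of 7 tested genes with other promoter types 0 were called, 1 of them at an unadjusted p below 0.05 (21.5% over all rows), with a median of -0.24. They were RN7SL1 and RN7SL2 of the signal recognition particle, the vault RNAs VTRNA1-1, VTRNA1-2 and VTRNA1-3, the 5S rRNA gene RNA5S1 and BCYRN1, and their log2FCs ran from -0.29 to -0.079. DESeq2 called 3 genes of both lists higher and 1 lower. The count of lower calls, 0 in the main fit, was also 1 with DESeq2 size factors and with total counts. It was 1 as well with a mean count of at least 50, with equal rows once, without scramble library 4 and without tDR library 1.

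In 2 other families with a parent gene and many copies, equal rows were taken once. Of 58 U1 rows 22 were called higher and 0 lower, with a median of 0.48. Of 55 rows of 7SL, the signal recognition particle RNA, 4 were called higher and 0 lower, with a median of 0.31. Over all rows 5.34% were called higher and 1.36% lower. Under DESeq2 the counts were 32 U1 rows higher, and 5 higher and 2 lower for 7SL. The 7SL count of 4 became 0 without scramble library 2, scramble library 3 or tDR library 4, 0 by total counts, 0 with the replicate block and 11 on microRNA factors. With another library left out it lay between 1 and 3. The parents RNU1-1 and RN7SL1 stood at 0.41 (SE 0.14, adjusted p = 0.0996) and -0.18 (SE 0.18, adjusted p = 0.643). A difference between families was not tested.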

How the data were processed

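The deposited raw file holds counts per small RNA row for 8 libraries, 4 a group, and the submitters' processing notes name build hg38. How reads were aligned, counted by strand or placed among several copies is not given in the sources used. The other deposited table is a normalized signal. The authors' library factors were read from the RN7SK row, as its count over its normalized value. 2 of 2964 rows (scr and scr2) are not genes and were left out. Members and lists were chosen with earlier results of these data known. The tests came from edgeR 4.0.16 in R 4.3.3 with filterByExpr, TMM scaling, robust quasi-likelihood F test, Benjamini-Hochberg adjusted p below 0.05 over 1761 rows. The SE is the log2 fold change over the square root of F. No library pair was a copy (chi-square per degree of freedom of 13.2 or more). Copies were aligned to RN7SK locally with Biopython 1.88 (match 2, mismatch -3, gap -5 and -2) on GENCODE release 29 transcripts (GRCh38). Named copies are those called, the 10 most abundant, the 5 largest and 5 smallest changes at a mean count of at least 20, and the 5 most identical over their whole length, beside RN7SK, the tested RNA polymerase III genes, RNU1-1 and RN7SL1; RN7SKP224, RN7SKP77, RN7SKP87 and the other rows of near-equal sets were chosen after their values were seen. Alternatives used DESeq2 1.42.0 and limma 3.58.1, the latter on log2 of the deposited signal plus 1, among others; that with the authors' factors, taken for rows other than tRNA, was added after seeing the data.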

Additional observations from a re-analysis of the deposited data

Results flagged for a closer look

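In groups of 4 libraries, a value was singled out where its gap to the nearest other was, as a share of the group's range, above Dixon's critical value. Chance does this in about 1 group in 20, and 11 of 86 groups checked had such a value, and groups of related rows are not independent. Scramble library 4 was high for RN7SKP178 (5.05 CPM, the others 2.92 to 2.94) and RN7SKP251 (4.96, the others 2.67 to 2.92) and low for RN7SKP55 (3.83, the others 4.49 to 4.57). Scramble library 1 was high for RN7SKP292 (85.3 CPM, the others 79.0 to 79.3), RN7SL1 (1775, the others 1059 to 1176) and RN7SL2 (1180, the others 777 to 832). In the tDR group, library 2 was high for RN7SKP255 (32.9 CPM, the others 22.5 to 23.1), RN7SKP176 (21.7, the others 14.9 to 15.1) and RNU1-1 (1228, the others 949 to 978). In the same group, library 4 was low for RN7SKP118 (6.98 CPM, the others 9.46 to 9.66) and RNU6-9 (547, the others 685 to 708).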

How the results depend on the processing

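The count of 7 family rows called higher, 7 also with equal rows once, became 1 under total counts, 21 when scaled on microRNAs alone, 18 with the authors' factors, 17 with the DESeq2 Wald test and 19 with limma on the deposited signal, for rows and for equal rows once alike. With 1 library left out it ran from 0 to 9, again for both. All 7 main calls were kept under DESeq2 size factors, TMM without 7SK rows, no filter, DESeq2, limma-voom, scaling on microRNAs alone and the authors' factors. 0 family rows were called lower after adjustment under any alternative run. With the replicate block the count of higher calls was 0, and over all rows it was 38 higher and 1 lower, against 94 and 24 without it. Same-numbered libraries had correlations of -0.34, -0.18, -0.26 and -0.12, and 0 of 4 libraries correlated best with its own number. No pairing by number was seen, but so few libraries cannot exclude a shared preparation, so the blocked result stands as a limit on the 7 calls. Over all rows, the calls were 54 higher and 39 lower by total counts, 157 and 1 by the microRNA factors, 133 and 61 by the DESeq2 Wald test, and with 1 library left out 52 to 117 higher and 3 to 47 lower. A mean count of at least 50 gave 77 and 46, DESeq2 size factors 97 and 39, and equal rows once 93 and 37. The authors' factors gave 125 and 24, and limma on the deposited signal 116 and 22.

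Scaling on microRNAs alone moved the median over all rows from 0.02 to 0.36 on the log2 scale, and total counts moved it to -0.13. Under the first, the median of the copies was 0.65, that of copies reaching the 3′ end 0.36 and that of copies stopping before it 0.71, and the direction turned for RN7SKP160 (0.19), RN7SKP292 (0.21), RN7SKP187 (0.13), RN7SKP118 (0.12), RN7SKP133 (0.17), RN7SKP214 (0.21), RN7SKP55 (0.29), RNU6-1 (0.23), RNU6-2 (0.26), RNU6-7 (0.25), RNU6-8 (0.25), RNU6-9 (0.18), RN7SL1 (0.16), RN7SL2 (0.096), VTRNA1-1 (0.052), VTRNA1-2 (0.12), VTRNA1-3 (0.077), RNA5S1 (0.24) and BCYRN1 (0.17). Under total counts it turned for RN7SK (-0.096), RN7SKP175 (-0.10), RPPH1 (-0.037) and RNY3 (-0.13), and RMRP lost its call (adjusted p = 0.0737). With a mean count of at least 50 it turned for RN7SK (-0.00029), RN7SKP175 (-0.018) and RNY3 (-0.022), and RN7SKP55 turned with the authors' factors (0.029) and with limma on the deposited signal (0.0053). With 1 library left out the log2 fold change ran from -0.023 to 0.13 for RN7SK, -0.017 to 0.082 for RN7SKP175, -0.13 to 0.13 for RN7SKP55, -0.35 to 0.19 for RN7SKP214, -0.32 to 0.096 for RN7SKP133, -0.074 to 0.076 for RNY3, -0.18 to 0.0098 for RNU6-1 and -0.28 to 0.019 for RN7SL1, and the median of the copies from 0.19 to 0.65. Counts of the largest copy alone over RN7SK were 0.371 in scramble and 0.319 in tDR libraries, both lower by construction than the sum over copies. The cause of these shifts was not tested. Copies of mean count under 20 limit what can be called at this depth.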
